A study of Mus musculus with 11 samples.

Results

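The 6 genes described here, Il6ra, Il6st, Stat3, Socs1, Socs3 and Pim1, encode the receptor of interleukin 6 (IL-6), its main transcription factor, and 3 genes that such signals are known to induce. They were chosen by symbol, with every probe set that the array annotation gives to them: 10 probe sets, and 6 of the 17097 genes measured. IL-6 binds its own receptor chain, Il6ra, and the pair then engages the shared signalling chain gp130, encoded by Il6st, which activates Jak kinases and the transcription factor Stat3. Stat3 turns on Socs3 and Pim1 among other genes, and the Socs proteins in turn damp Jak activity as feedback inhibitors. In CD4 T cells IL-6 is known for opposing the formation of regulatory T cells and for promoting follicular helper and Th17 cells.

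RNA was measured on 11 arrays from 16-week-old male NOD mice, an inbred strain whose males develop spontaneous autoimmune dacryoadenitis. The strain is used to model Sjögren's disease of the lacrimal gland (LG). Every group shares that strain, sex and age. Effector regulatory T cells (LG_eTreg), effector conventional T cells (LG_eTconv) and naive T cells (LG_naive) were sorted from gland suspensions with 3 arrays each, and total CD8 (Spl_CD8) and total CD4 (Spl_CD4) T cells of the spleens of the same mice had 1 array each. All gland cells were sorted as live CD4 and TCRβ positive cells. The naive cells lacked PD1 and ICOS, whereas both effector subsets were high for PD1 and ICOS. The design text gives both effector subsets the same gate, low for CD73 and CD200, so what separated them is not stated there. Foxp3, the defining transcription factor of regulatory T cells, lay between 8.13 and 8.21 on the LG_eTreg arrays and between 3.61 and 4.85 on the LG_eTconv arrays. The 6 regulatory T cell markers, Foxp3 among them, summed to 11.60 to 11.67 in LG_eTreg, 10.78 to 11.13 in LG_eTconv and 9.19 to 9.35 in LG_naive. Means in LG_eTreg and LG_eTconv were 7.15 and 5.12 for Il2ra, 9.25 and 8.22 for Tnfrsf18, and 9.28 and 8.26 for Ikzf2. They were closer for Ctla4, at 10.26 and 9.97, and in the other direction for Nrp1, at 8.26 and 8.59. All values are RMA signals on a log2 scale, the base being inferred, and an SD or SE is on that scale.

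The T cell identity genes measured, 8 of 9, were above background on every array, and Cd4 was 2.47 on Spl_CD8 against at least 8.35 elsewhere. Markers of other cells differed between gland groups. The summed level of 11 monocyte and macrophage markers ran from 9.52 to 9.78 in LG_eTreg, 9.44 to 9.49 in LG_eTconv and 10.02 to 10.38 in LG_naive, with Csf1r and Itgam at background in all of them. For 9 dendritic cell markers it was 8.66 to 9.08 in LG_eTreg, 8.63 to 8.92 in LG_eTconv and 10.14 to 10.67 in LG_naive. For 7 B and plasma cell markers it was 6.32 to 7.25 in LG_eTreg, 7.20 to 7.95 in LG_eTconv and 8.16 to 8.50 in LG_naive, with Pax5 and Ighm at background. For 8 gland epithelium markers it was 9.59 to 9.86 in LG_eTreg, 9.30 to 9.59 in LG_eTconv and 9.84 to 10.60 in LG_naive, so that LG_eTreg and LG_naive overlapped. Scgb2b20, the gene of this list with the highest mean in each, had means of 9.37 in LG_eTreg, 9.28 in LG_eTconv and 9.64 in LG_naive. In the same order Epcam had means of 6.37, 3.32 and 5.66, and Krt18 of 4.89, 3.47 and 6.20. CD8 and natural killer markers summed to 5.61 to 5.78 in LG_eTreg, 6.45 to 6.99 in LG_eTconv and 5.42 to 5.89 in LG_naive. The part of these cells in the results below was not tested. Whether the arrays of a group stand for different mice or pools is not stated, so p-values measure the spread between these arrays, which may be technical. In RNA of a sorted population, fewer cells of a type and less RNA per cell cannot be told apart.

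Of the members, Il6ra alone was called lower in LG_eTreg than in both other gland subsets, while Il6st, Stat3, Socs1 and Socs3 passed the test in none of the 3 gland comparisons. Il6ra was 2.33-fold lower in LG_eTreg than in LG_eTconv and 2.99-fold lower than in LG_naive. The remaining call was Pim1, at signals below background on all arrays. Tests were run with limma over the 9 gland arrays, and a call means an adjusted p under 0.05 after Benjamini-Hochberg correction across all 17097 genes. Between LG_eTreg and LG_eTconv, 2 of the 6 members were called, against 5.70% of all genes: 1 was lower, as were 2.76% of all genes, and 1 was higher, as were 2.94%. Between LG_eTreg and LG_naive 1 member was called, against 11.7% of all genes, and it was lower, as were 5.47%, and between LG_eTconv and LG_naive none was, against 13.5% (6.45% higher and 7.02% lower). At an unadjusted p under 0.05 limma gave 1 there, Pim1, which is below background, against 25.1% of all genes. Over all probe sets, 1 of the members' 10 was called between LG_eTreg and LG_eTconv (3.46% of all probe sets), 1 between LG_eTreg and LG_naive (7.60%) and 0 between LG_eTconv and LG_naive (9.11%). The first was Pim1, below background, and the brighter Il6ra probe set missed the threshold there (limma adjusted p = 0.0503). The second was Il6ra. The arrays of both groups did not overlap for 3 members between LG_eTreg and LG_eTconv (21.5% of all genes), for 2 between LG_eTreg and LG_naive (27.1%) and for 1 between LG_eTconv and LG_naive (31.1%). Pim1, below background, is counted in each of these. The comparisons share groups, so their calls are not separate evidence.

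**Figure D1:**
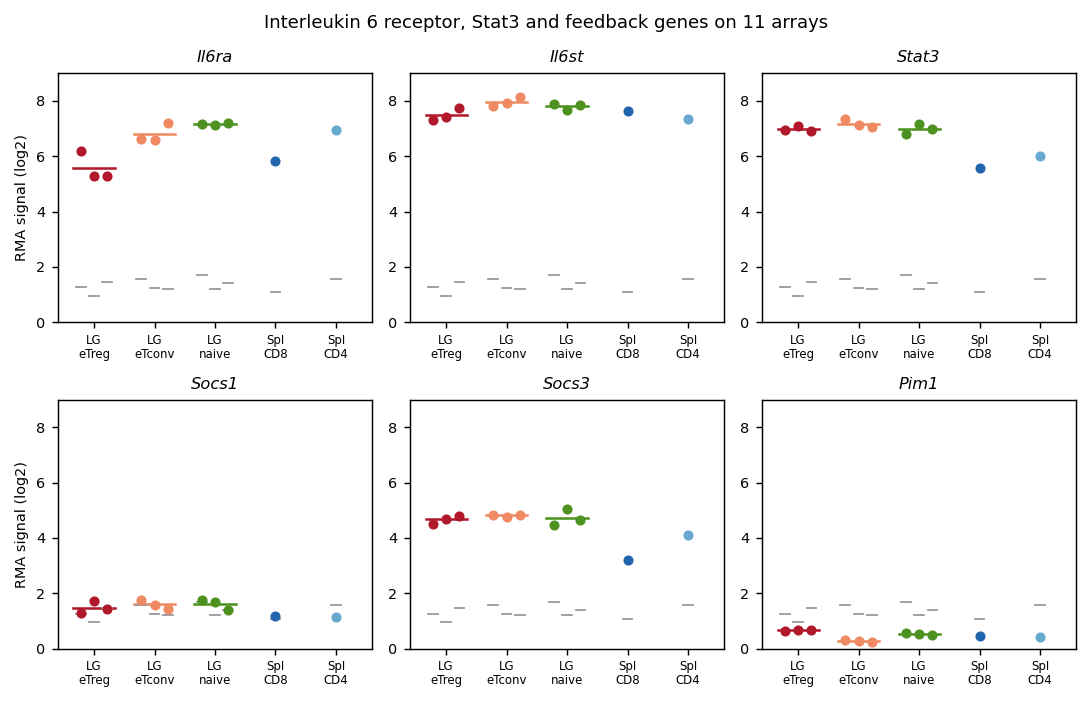
RMA signal (log2) of the representative probe set of each member on each array. Points are arrays, coloured lines are means of 3 gland arrays, and grey dashes mark each array's background limit. Among the gland arrays Il6ra is lowest in LG_eTreg (5.27 to 6.20), Stat3 and Socs3 are lowest on the spleen arrays, and Pim1 lies below the limit throughout.

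The receptor chain specific to IL-6 differed most between the gland groups among the 6 genes. The probe set that stands for Il6ra, the one with the highest mean over the gland arrays, gave 6.20, 5.29 and 5.27 on the LG_eTreg arrays. It gave 6.61, 6.60 and 7.20 on the LG_eTconv arrays and 7.16, 7.14 and 7.20 on the LG_naive arrays. All 3 LG_eTreg arrays lay below every other gland array, LG_eTreg 1 being the nearest to them, and the LG_naive arrays were the most alike. The means were 5.59 ± 0.53 in LG_eTreg, 6.80 ± 0.34 in LG_eTconv and 7.16 ± 0.03 in LG_naive (SD, n = 3 each). LG_eTreg was lower than LG_eTconv by a log2 difference of -1.22 (SE 0.26, 95% interval -1.82 to -0.61, limma adjusted p = 0.0326), and lower than LG_naive by -1.58 (SE 0.26, interval -2.19 to -0.97, limma adjusted p = 0.00535). Between LG_eTconv and LG_naive the difference was -0.36 (interval -0.97 to 0.24, limma adjusted p = 0.476), and these groups overlapped.

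The Il6ra call against LG_naive held when each array was left out in turn, with an adjusted p of at most 0.0236. The call against LG_eTconv did not: leaving out LG_eTreg 1 kept it (-1.52, adjusted p = 0.00437), whereas leaving out any of the other 8 gland arrays gave adjusted p-values from 0.0521 to 0.114, at differences from -1.32 to -1.02. A second Il6ra probe set was dimmer, at 1.65, 1.95 and 1.84 in LG_eTreg, 1.87, 1.95 and 1.86 in LG_eTconv and 2.91, 3.54 and 2.03 in LG_naive. It was above background on all 11 arrays. On it LG_eTreg and LG_eTconv overlapped (-0.08, limma adjusted p = 0.961 over all probe sets), and LG_eTreg was below LG_naive on every array without passing the test (-1.01, adjusted p = 0.119). Between LG_eTreg and LG_eTconv the lower signal was thus seen on the brighter probe set only.

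The shared chain gp130 was called in no gland comparison. Il6st gave 7.30, 7.43 and 7.76 on the LG_eTreg arrays, 7.83, 7.91 and 8.15 on the LG_eTconv arrays and 7.90, 7.67 and 7.85 on the LG_naive arrays. LG_eTreg lay below LG_eTconv with no overlap and overlapped LG_naive. The differences were -0.47 against LG_eTconv (interval -0.81 to -0.13, limma adjusted p = 0.139) and -0.31 against LG_naive (interval -0.65 to 0.03, adjusted p = 0.272). Between LG_eTconv and LG_naive it was 0.16 (interval -0.18 to 0.50, adjusted p = 0.588). Both dimmer Il6st probe sets were also not called: one ran from 1.80 to 2.95 over the 11 arrays, and the other passed the background limit on 5 of them.

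Stat3, the factor these receptors activate, was called in no gland comparison either. Its signals were 6.96, 7.11 and 6.90 in LG_eTreg, 7.35, 7.12 and 7.07 in LG_eTconv and 6.82, 7.16 and 7.00 in LG_naive. The groups overlapped in all 3 comparisons. The difference between LG_eTreg and LG_eTconv was -0.20 on the log2 scale (interval -0.49 to 0.10, limma adjusted p = 0.557). Against LG_naive the differences were -0.01 for LG_eTreg (interval -0.30 to 0.29, adjusted p = 0.988) and 0.19 for LG_eTconv (interval -0.10 to 0.49, adjusted p = 0.43). These intervals leave room for a fall of up to 0.49 from LG_eTconv to LG_eTreg and a rise of up to 0.49 from LG_naive to LG_eTconv. Between LG_eTreg and LG_naive they leave room for about 0.30 in either direction. A second Stat3 probe set was below background on every array. Transcript levels say nothing of Stat3 phosphorylation, which was not measured.

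Of the feedback inhibitors, Socs3 is the one known to bind gp130 itself. It gave 4.51, 4.70 and 4.80 in LG_eTreg, 4.83, 4.76 and 4.84 in LG_eTconv and 4.45, 5.04 and 4.64 in LG_naive, and the LG_naive arrays spanned both effector groups. The difference between LG_eTreg and LG_eTconv was -0.14 (interval -0.50 to 0.22, limma adjusted p = 0.769), and those from LG_naive were -0.04 for LG_eTreg (adjusted p = 0.928) and 0.10 for LG_eTconv (adjusted p = 0.774). Socs1, an inhibitor of Jak kinases induced by many cytokines, sat at the detection limit: 1.27, 1.73 and 1.44 in LG_eTreg, 1.77, 1.58 and 1.44 in LG_eTconv and 1.74, 1.67 and 1.39 in LG_naive, above background on 8 of the 11 arrays. No gland comparison called Socs1 (differences from -0.12 to -0.01, limma adjusted p from 0.746 to 0.985), and a signal this low leaves little room to see a fall.

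Pim1 encodes a serine/threonine kinase that promotes survival and is a known Stat3 target. Its single probe set gave 0.62, 0.68 and 0.67 in LG_eTreg, 0.31, 0.28 and 0.25 in LG_eTconv and 0.55, 0.52 and 0.49 in LG_naive, below the background limit on all 11 arrays. The groups did not overlap, and limma called LG_eTreg above LG_eTconv by 0.38 (interval 0.19 to 0.57, adjusted p = 0.0334). That call was lost in 12 of 19 other settings, among them 8 of the 9 that leave out 1 array, with adjusted p-values up to 0.16. No level and no fold can be read from a signal below background. The difference from LG_naive was 0.14 for LG_eTreg (adjusted p = 0.39) and -0.24 for LG_eTconv (adjusted p = 0.103).

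**Figure D2:**
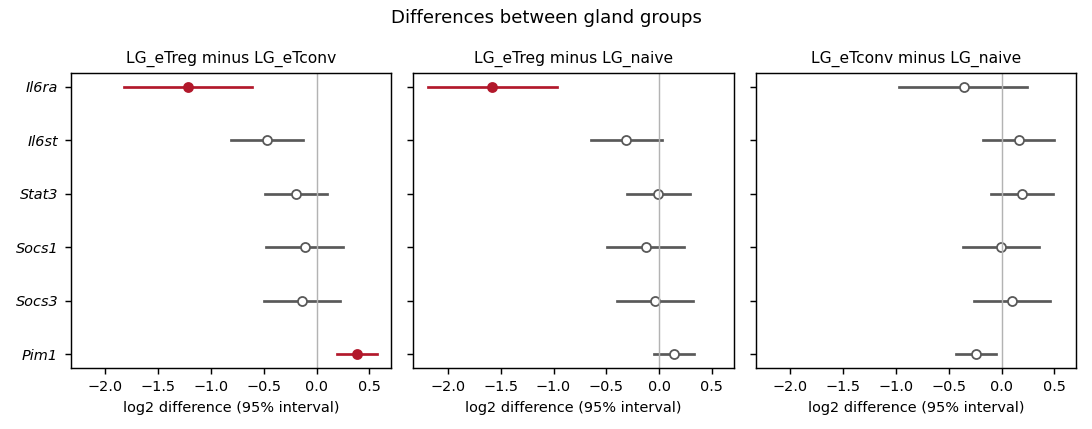
Differences between gland groups for the 6 members, on the log2 scale, with 95% intervals from limma. Filled red points have an adjusted p under 0.05 over all genes: Il6ra in both comparisons of LG_eTreg, and Pim1, which is below background, between LG_eTreg and LG_eTconv.

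The promoters of Socs3, the feedback gene with a measurable level, and of Il6ra, the member that differed, are shown because Stat dimers are known to bind the palindrome TTCNNNGAA. Each sequence is the 250 bases before the start site in RefSeq (GRCm38.p6), Socs3 at chr11:117969367-117969616 and Il6ra at chr3:89913197-89913446, both on the minus strand and written 5′ to 3′. Capitals mark a match to the palindrome, which reads the same on both strands.
Socs3: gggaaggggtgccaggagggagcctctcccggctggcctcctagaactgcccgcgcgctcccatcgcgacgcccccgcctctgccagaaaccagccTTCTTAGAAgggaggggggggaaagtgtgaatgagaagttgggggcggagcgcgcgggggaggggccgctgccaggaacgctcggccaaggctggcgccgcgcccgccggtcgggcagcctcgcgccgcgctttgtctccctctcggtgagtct
Il6ra: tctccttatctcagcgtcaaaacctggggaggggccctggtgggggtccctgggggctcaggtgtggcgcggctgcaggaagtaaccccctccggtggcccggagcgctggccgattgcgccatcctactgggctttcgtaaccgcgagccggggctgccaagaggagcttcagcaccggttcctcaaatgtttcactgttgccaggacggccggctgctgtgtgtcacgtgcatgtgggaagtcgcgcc
The Socs3 window held 1 match, which begins 154 bases before the start site, and the Il6ra window held none. The windows of Il6st, Stat3, Socs1 and Pim1 held none either. Of 32851 promoter windows of the same length, 7.02% held at least 1 match to TTCNNNGAA and 5.85% to the wider form TTCNNNNGAA, which no member's window held. A match is a stretch of letters, and neither its presence nor its absence here says whether Stat3 binds.

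Against the spleen the members split differently, and with 1 array per spleen group there is no test. A difference was counted where it was at least 1 on the log2 scale with all gland arrays on one side of Spl_CD4. By that rule 1 of 6 members differed in LG_eTreg (12.4% of all genes did), 1 in LG_eTconv (13.2%), 0 in LG_naive (9.24%) and 1 in Spl_CD8 (8.25%). Il6ra was 5.84 on Spl_CD8 and 6.96 on Spl_CD4. It differed from Spl_CD4 by -1.38 in LG_eTreg, with arrays from -1.69 to -0.77, and by -1.12 on Spl_CD8, whereas LG_naive stood only 0.17 to 0.23 above Spl_CD4. In order of level, Il6ra was highest in LG_naive, then on Spl_CD4, in LG_eTconv, on Spl_CD8 and in LG_eTreg. The LG_eTconv arrays spanned the Spl_CD4 and LG_naive values and the LG_eTreg arrays spanned the Spl_CD8 value, so in that order neighbours were apart between LG_naive and Spl_CD4 and between LG_eTconv and Spl_CD8.

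Stat3 showed a different order: 5.56 on Spl_CD8 and 6.01 on Spl_CD4 were below all 9 gland arrays. The mean difference from Spl_CD4 was 0.98 for LG_eTreg (0.89 to 1.10), 1.18 for LG_eTconv (1.07 to 1.34) and 0.98 for LG_naive (0.81 to 1.15), so only LG_eTconv passed the rule, by a small margin. Socs3 was likewise lowest on Spl_CD8 (3.20) and Spl_CD4 (4.09), with means above Spl_CD4 by 0.58 in LG_eTreg, 0.72 in LG_eTconv and 0.62 in LG_naive. Il6st differed from Spl_CD4 by 0.17 in LG_eTreg, 0.64 in LG_eTconv, 0.48 in LG_naive and 0.31 on Spl_CD8. Socs1 and Pim1 lay near or below background on both spleen arrays. Gland cells went through enzyme digestion, per the labels' protocols, so tissue and handling cannot be told apart in this comparison. Summed marker levels differed between the tissues as well. The 6 neutrophil markers reached at most 3.09 on gland arrays, against 8.02 on Spl_CD8 and 7.18 on Spl_CD4, where Csf3r, Cxcr2, Mpo and Elane were at background. The 8 gland epithelium markers summed to between 9.30 and 10.60 on gland arrays, against 6.19 on Spl_CD8 and 6.38 on Spl_CD4. The 7 B and plasma cell markers reached at most 8.50 on gland arrays, against 9.79 on Spl_CD8 and 8.99 on Spl_CD4. For dendritic cell markers LG_eTreg and LG_eTconv reached at most 9.08 and LG_naive 10.67, against 10.83 on Spl_CD8 and 10.61 on Spl_CD4. The part of those cells in these differences was not tested.

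**Figure D3:**
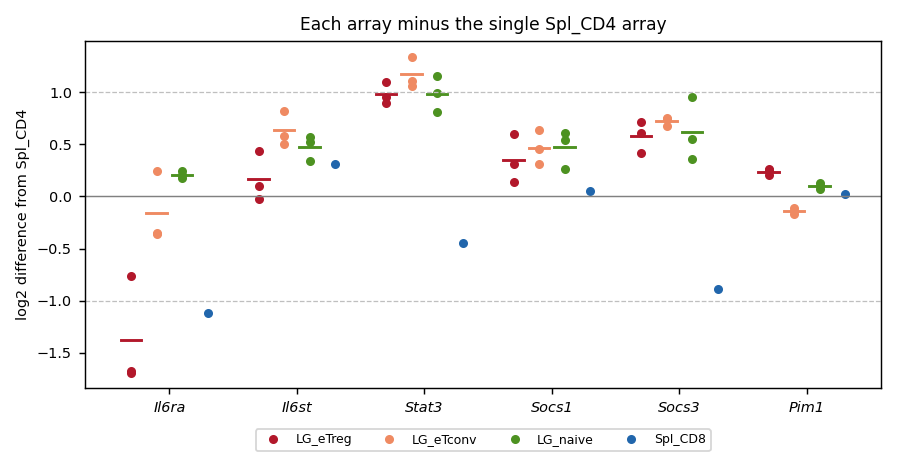
Each gland array, and Spl_CD8, minus the single Spl_CD4 array for the 6 members (log2). Points are arrays, short lines are group means and dashed lines mark a difference of 1. The LG_eTreg points lie below 0 for Il6ra, and all gland points lie above 0 for Stat3 and Socs3.

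Around the members, 77 genes of the pathway were listed by role, of which 67 were measured. Between LG_eTreg and LG_eTconv 12 were higher and 7 lower (28.4%, against 5.70% of all genes), between LG_eTreg and LG_naive 22 higher and 2 lower (35.8%, against 11.7%), and between LG_eTconv and LG_naive 20 higher and 6 lower (38.8%, against 13.5%). Their median difference was 0.19 between LG_eTreg and LG_eTconv (0.01 over all genes), 0.23 between LG_eTreg and LG_naive (-0.02) and 0.07 between LG_eTconv and LG_naive (-0.03). The lists were drawn up with earlier results of these data known. Of the 67 genes, 62 were above background on at least 1 gland array, whereas 55.5% to 65.6% of all genes were above it on a given array. The shares over all genes thus include many genes without signal, and shares among genes above background were not computed.

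Il6 itself was below background on all gland arrays, so these T cells gave no measurable signal for the ligand. Of 6 ligands of the gp130 family measured, 1 was lower in LG_eTreg than in LG_eTconv, 1 was higher in LG_eTreg than in LG_naive and 2 were higher in LG_eTconv than in LG_naive. The first was Lif, a cytokine that signals through Lifr and gp130. Lif was 2.31, 2.42 and 2.33 in LG_eTreg, 4.65, 4.31 and 5.06 in LG_eTconv and 1.59, 2.06 and 2.41 in LG_naive, so the LG_eTconv arrays stood apart, and 2 of the 3 LG_naive arrays were above background. It was lower in LG_eTreg than in LG_eTconv (-2.32 on the log2 scale, limma adjusted p = 0.000681) and higher in LG_eTconv than in LG_naive by 2.65 (adjusted p = 0.000141). Ebi3, the chain that IL-27 and IL-35 share, was higher than in LG_naive in both effector groups, by 2.70 in LG_eTreg (adjusted p = 0.000691) and 3.03 in LG_eTconv (adjusted p = 0.000301).

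Of 6 partner receptors measured, 1 was higher and 1 lower than in LG_naive in each effector group, and none was called between LG_eTreg and LG_eTconv by limma at an adjusted p under 0.05. The one that fell was Lifr, the chain that pairs with gp130 for Lif. It gave 0.83, 1.52 and 1.16 in LG_eTreg, 1.04, 2.24 and 1.35 in LG_eTconv and 5.92, 5.70 and 5.92 in LG_naive, and it was above background on 1 LG_eTreg and 2 LG_eTconv arrays. The difference from LG_naive was -4.67 in LG_eTreg (limma adjusted p = 3.05e-05) and -4.30 in LG_eTconv (adjusted p = 3.64e-05). Spl_CD4 gave 2.30 and Spl_CD8 1.53, so among these groups LG_naive stood apart. The summed fibroblast and endothelium markers were highest in LG_naive too, at 4.43 to 4.50 in LG_eTreg, 4.83 to 5.05 in LG_eTconv and 6.12 to 6.33 in LG_naive. Of the 10 genes, 1 to 8 were above background on an LG_naive array, and the 1 on LG_naive 1 was Pecam1, at 5.67. On LG_naive 1, 2 and 3, Cdh5 was 1.54, 3.58 and 2.01, and Col3a1 was 1.27, 3.88 and 3.63. Pecam1, an endothelial adhesion molecule that leukocytes also carry, was also 4.90 on Spl_CD4. The part of these cells in the Lifr difference was not tested. Il27ra, which pairs with gp130 for IL-27, was between 8.23 and 8.95 on the gland arrays and was not called. Il12rb1, of the IL-12 and IL-23 receptors, was higher than in LG_naive by 1.68 in LG_eTreg (limma adjusted p = 0.000763) and by 1.18 in LG_eTconv (adjusted p = 0.00446), and Il12rb2 was near background.

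Of 5 other receptors that signal through Stat3, 2 were higher in LG_eTreg than in LG_eTconv, 1 was higher in LG_eTreg than in LG_naive and 1 was lower in LG_eTconv than in LG_naive. Il10ra, the ligand-binding chain of the IL-10 receptor, was 5.27, 5.18 and 5.06 in LG_eTreg, 3.03, 3.80 and 3.22 in LG_eTconv and 2.23, 2.24 and 3.15 in LG_naive. It was higher in LG_eTreg than in LG_eTconv by 1.82 (limma adjusted p = 0.00631) and than in LG_naive by 2.63 (adjusted p = 0.000463). Il10rb, its signalling partner, was higher in LG_eTreg than in LG_eTconv by 0.96 (adjusted p = 0.0285), a call lost in 8 of 20 alternative settings. Il21r was lower in LG_eTconv than in LG_naive (-0.72 on the log2 scale, adjusted p = 0.0355), a call also lost in 8 of 20.

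Adam17, one of the proteases known to shed the IL-6 receptor from the cell surface, was 7.94, 7.85 and 7.95 in LG_eTreg, 7.07, 7.14 and 6.96 in LG_eTconv and 7.21, 7.42 and 7.36 in LG_naive. The LG_eTreg arrays were above all the others, by 0.86 over LG_eTconv (limma adjusted p = 0.00151) and 0.59 over LG_naive (adjusted p = 0.0064). Its 3 probe sets ran from 0.31 to 0.86 against LG_eTconv and from -0.16 to 0.71 against LG_naive, and with their mean the call against LG_naive was lost (adjusted p = 0.0671). Adam10, the other protease, was not called.

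Each gland comparison called 1 of the 4 Jak kinases. Jak2 was higher in LG_eTconv than in LG_naive by 0.69 (limma adjusted p = 0.00137) and Tyk2 was higher in LG_eTreg than in LG_naive by 0.72 (adjusted p = 0.0201, lost in 2 of 20 settings). Jak1, the kinase gp130 depends on most, ran from 7.81 to 8.24 on the gland arrays and was not called, nor was Jak3. Between LG_eTreg and LG_naive the 3 Jak1 probe sets ran from -0.86 to -0.24. Their mean passed the threshold (-0.57, limma adjusted p = 0.0413), the only 1 of 20 settings to do so. Jak3 was 0.83 higher in LG_eTreg than in LG_naive (adjusted p = 0.0676) without overlap, and passed in 3 of 20 settings. LG_eTreg was also called below LG_eTconv for Jak2 (-0.44, adjusted p = 0.0283), a call lost in 12 of 20 settings. Of 5 other Stat factors, 1 was higher and 1 lower both between the effector groups and between LG_eTconv and LG_naive. Stat4, which carries IL-12 signals, was higher in LG_eTconv than in LG_naive by 0.97 (adjusted p = 0.000468) and lower in LG_eTreg than in LG_eTconv (-0.96 on the log2 scale, adjusted p = 0.00114). Stat5a, which carries IL-2 signals, was 8.07 to 8.27 on every gland array and was not called. Stat2, of the interferon pathway, was higher in LG_eTreg than in LG_eTconv by 1.26 (adjusted p = 0.0221, lost in 5 of 20 settings) and lower in LG_eTconv than in LG_naive (-1.07 on the log2 scale, adjusted p = 0.0238, lost in 6 of 20).

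Of 6 other members of the Socs family, 2 were higher in LG_eTreg than in LG_eTconv, and 2 were higher than in LG_naive in each effector group. Cish and Socs2, known for feedback on Stat5, were higher in both effector groups than in LG_naive. Cish was 7.04, 7.36 and 7.35 in LG_eTreg, 6.27, 6.29 and 6.12 in LG_eTconv and 4.51, 3.68 and 4.19 in LG_naive. The groups stepped down in that order without overlap: LG_eTreg exceeded LG_naive by 3.12 (limma adjusted p = 3.24e-05) and LG_eTconv exceeded it by 2.10 (adjusted p = 0.000222). LG_eTreg exceeded LG_eTconv by 1.03 (adjusted p = 0.0221), a call lost in 7 of 20 settings, among them leaving out any 1 LG_eTconv array, LG_eTreg 2 or LG_eTreg 3. Socs2 gave 6.89, 7.06 and 7.49 in LG_eTreg, 7.62, 7.60 and 7.49 in LG_eTconv and 2.78, 4.22 and 4.13 in LG_naive. Both effector groups were above LG_naive, by 3.44 in LG_eTreg (adjusted p = 0.000384) and 3.86 in LG_eTconv (adjusted p = 0.000161). The 4 remaining genes of that list, Socs4 to Socs7, showed 1 call, Socs4 higher in LG_eTreg than in LG_eTconv by 0.78 (adjusted p = 0.0372), lost in 12 of 20 settings. Whether the differences of Socs2 or Cish exceed those of Socs1 and Socs3 was not tested.

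**Figure D4:**
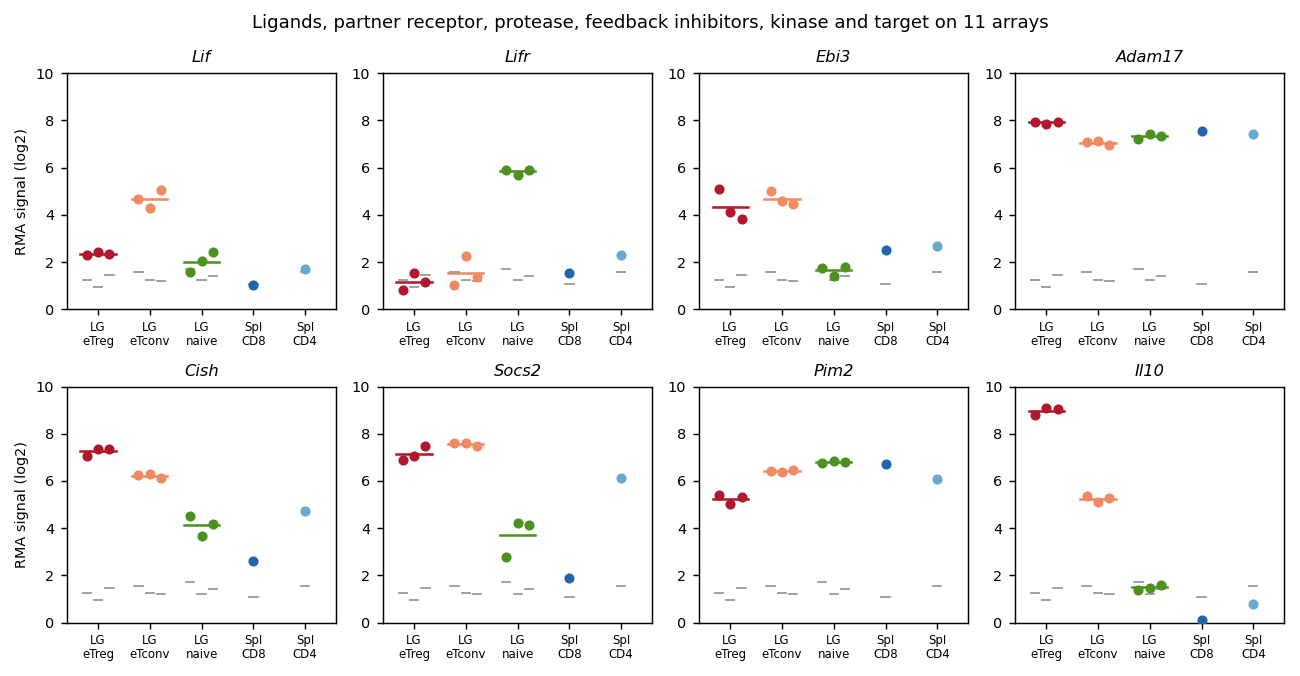
RMA signal (log2) of 8 genes around the receptor on each array, with means of gland groups as lines and background limits as grey dashes. Lif is highest in LG_eTconv, Lifr in LG_naive, and Adam17, Cish and Il10 in LG_eTreg, where Pim2 is lowest.

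Of 9 phosphatases and Pias inhibitors, 1 was lower in LG_eTreg than in LG_eTconv, 2 were higher in LG_eTreg than in LG_naive and 3 were higher in LG_eTconv than in LG_naive. Ptpn11, the phosphatase that docks on gp130 and competes with Socs3 for the same site, was 9.05, 8.94 and 8.77 in LG_eTreg, 10.03, 9.99 and 10.09 in LG_eTconv and 8.30, 8.43 and 8.48 in LG_naive. It was higher in LG_eTconv than in LG_naive by 1.63 (limma adjusted p = 2.40e-05), lower in LG_eTreg than in LG_eTconv (-1.12 on the log2 scale, adjusted p = 0.000468) and higher in LG_eTreg than in LG_naive by 0.52 (adjusted p = 0.0154). The last call was lost in 3 of 20 settings. These were the mean of its probe sets (0.22, adjusted p = 0.732), and leaving out LG_eTreg 1 (adjusted p = 0.055) or LG_eTreg 2 (adjusted p = 0.051). Ptpn1 was higher in LG_eTconv than in LG_naive by 0.91 (adjusted p = 0.00743). Pias3, an inhibitor of Stat3 binding to DNA, was higher than in LG_naive by 1.70 in LG_eTreg (adjusted p = 0.000915) and by 1.51 in LG_eTconv (adjusted p = 0.00151), although its other probe set gave -0.09 in LG_eTreg and -0.18 in LG_eTconv.

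Pim2, a kinase close to Pim1 in function, was measurable where Pim1 was not. It gave 5.41, 5.02 and 5.32 in LG_eTreg, 6.41, 6.38 and 6.47 in LG_eTconv and 6.77, 6.86 and 6.82 in LG_naive, with no overlap between any of the groups. It was lower in LG_eTreg than in LG_eTconv (-1.17 on the log2 scale, limma adjusted p = 0.000574) and than in LG_naive (-1.57 on the log2 scale, adjusted p = 6.45e-05). The difference of LG_eTconv from LG_naive was -0.40 (adjusted p = 0.059). Pim3 ran from 4.32 to 4.90 on the gland arrays without a call, against 3.02 on Spl_CD8 and 2.99 on Spl_CD4.

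Among 19 measured genes known as Stat3 targets in T cells, each also under other controls, 5 were higher and 1 lower in LG_eTreg than in LG_eTconv. That is 31.6% called, against 5.70% of all genes, with a median difference of 0.39 (0.01 over all genes). Against LG_naive, 11 were higher and 0 lower in LG_eTreg (57.9%, against 11.7% of all genes, median 0.85 against -0.02). In LG_eTconv 8 were higher and 3 lower (57.9%, against 13.5%, median 0.19 against -0.03). This list too was drawn up with earlier results known, and 18 of its 19 genes were above background on a gland array. The shares are therefore a description, and Stat3 activity was not tested. The 11 include Il17a, below background on all gland arrays. They also include Cebpb, whose call was lost with the mean of its probe sets (0.30, limma adjusted p = 0.191). Il10, an anti-inflammatory cytokine, gave 8.80, 9.11 and 9.03 in LG_eTreg, 5.37, 5.12 and 5.26 in LG_eTconv and 1.39, 1.46 and 1.61 in LG_naive, without overlap, and 2 of the 3 LG_naive arrays were above background. It was higher in LG_eTreg than in LG_eTconv by 3.73 (limma adjusted p = 2.13e-06) and in LG_eTconv than in LG_naive by 3.76 (adjusted p = 8.94e-07). Il21, the cytokine of follicular helper cells, was 5.73, 5.59 and 5.54 in LG_eTreg, 8.34, 8.66 and 8.56 in LG_eTconv and 0.89, 1.27 and 1.18 in LG_naive, where only 1 of 3 arrays was above background. It was lower in LG_eTreg than in LG_eTconv (-2.90 on the log2 scale, adjusted p = 9.96e-06), and above LG_naive by 4.50 in LG_eTreg (adjusted p = 1.60e-06) and 7.40 in LG_eTconv (adjusted p = 3.79e-08).

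Maf and Ahr, transcription factors that promote Il10 and Il21, were higher than in LG_naive in both effector groups, Maf by 3.66 in LG_eTreg (limma adjusted p = 4.70e-05) and 3.30 in LG_eTconv (adjusted p = 6.37e-05). For Ahr these differences were 3.67 in LG_eTreg (adjusted p = 0.000583) and 3.19 in LG_eTconv (adjusted p = 0.00108). Between LG_eTreg and LG_eTconv neither was called (0.37 for Maf and 0.48 for Ahr). Icam1, an adhesion molecule, was higher in LG_eTreg than in LG_eTconv by 1.54 (adjusted p = 8.90e-05) and Bcl3, a coregulator of NF-kappaB, by 0.80 (adjusted p = 0.0185, lost in 5 of 20 settings). Cebpb was called higher in LG_eTreg than in LG_eTconv by 1.93 (adjusted p = 0.000128), but its probe sets ran from -0.38 to 1.93 and their mean was not called (0.45, adjusted p = 0.0807). Batf, a partner of Stat3 at many T cell genes, was not called: it gave 5.47, 5.80 and 7.05 in LG_eTreg, 4.89, 5.75 and 5.63 in LG_eTconv and 5.17, 4.26 and 3.82 in LG_naive. LG_eTreg lay above LG_naive without overlap, by 1.69 (limma adjusted p = 0.0593), and this difference passed the threshold in 5 of 20 alternative settings.

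IL-2 acts through Stat5, which is known to oppose Stat3 at shared genes, and each of its 3 measured genes was called in at least 1 comparison. Il2 gave 1.59, 1.87 and 0.93 in LG_eTreg, 6.52, 6.53 and 6.53 in LG_eTconv and 1.34, 0.69 and 2.40 in LG_naive, with 2 LG_eTreg arrays and 1 LG_naive array above background and a difference of -5.07 between LG_eTreg and LG_eTconv (limma adjusted p = 0.000156). Il2ra was higher in LG_eTreg by 2.03 over LG_eTconv (adjusted p = 0.000135) and 2.58 over LG_naive (adjusted p = 2.35e-05). Il2rb was higher than in LG_naive in both effector groups, by 3.20 in LG_eTreg (adjusted p = 6.37e-06) and 2.64 in LG_eTconv (adjusted p = 1.20e-05).

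**Figure D5:**
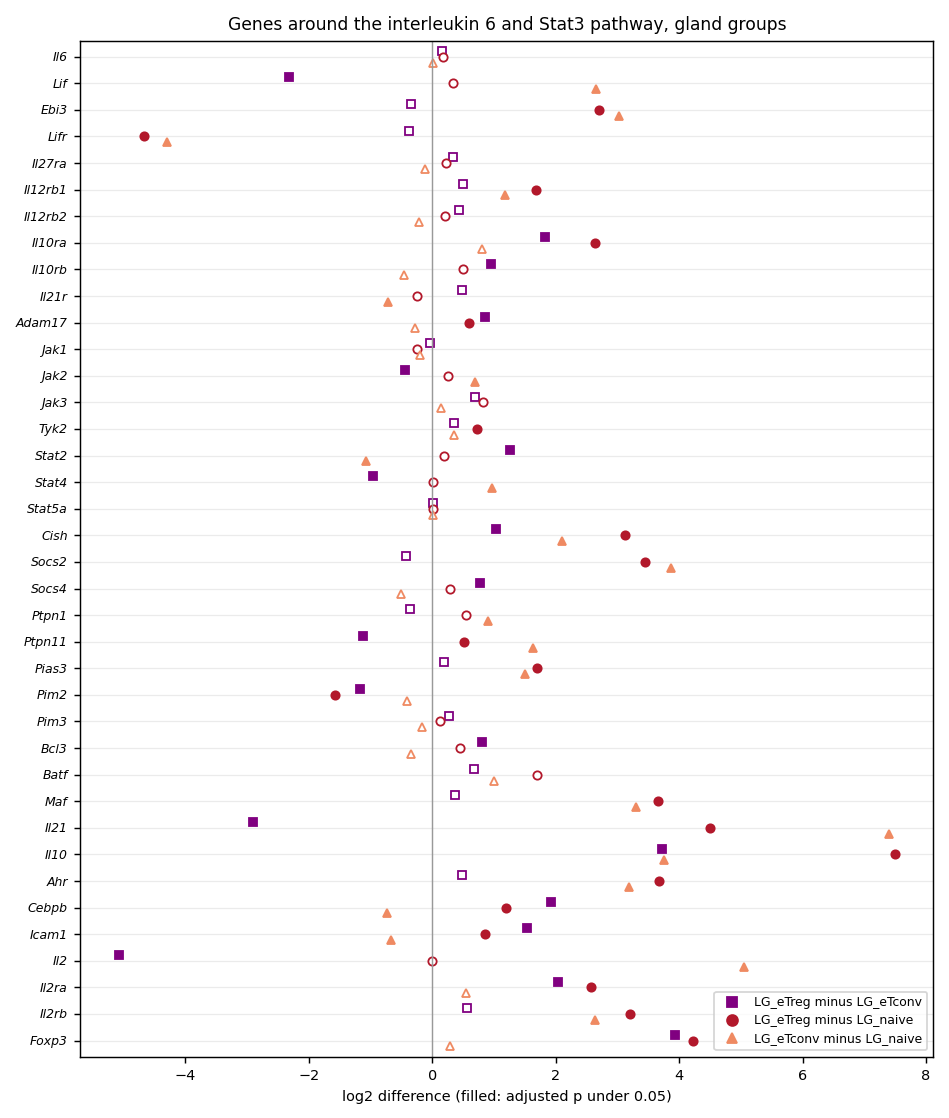
Log2 differences between gland groups for the named pathway genes, squares for LG_eTreg minus LG_eTconv, circles for LG_eTreg minus LG_naive and triangles for LG_eTconv minus LG_naive. Filled symbols have an adjusted p under 0.05 over all genes. Lifr lies far to the left in both comparisons with LG_naive, Il10 far to the right.

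Genes with a pattern like that of a called member were ranked by Pearson correlation over the 11 arrays among 2391 genes whose gland means span at least 1, as a description, since the arrays share their groups. For Il6ra the 3 highest were Ccl19 (0.900), a chemokine ligand of Ccr7, Mfhas1 (0.888) and Polr1a (0.878), a subunit of RNA polymerase I. Ccl19 was dim, at 2.07, 1.66 and 1.90 in LG_eTreg, 2.77, 2.29 and 2.98 in LG_eTconv and 2.96, 2.84 and 3.37 in LG_naive, where background limits reached 1.70. Mfhas1 was 6.62, 6.12 and 5.71 in LG_eTreg, 7.95, 7.60 and 7.61 in LG_eTconv and 7.89, 7.80 and 7.78 in LG_naive, and thus also lowest on the LG_eTreg arrays. Pim2 ranked 30th (0.774). No gene is named for Pim1, whose signal is below background.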

How the data were processed

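Perfect-match probe set arrays measured RNA of sorted T cells, 3 arrays for each of 3 lacrimal gland groups and 1 for each of 2 spleen groups. The authors deposited log2 signals, and the submitters' processing notes name Partek and RMA. Versions, and the genome build, are not given in the sources used here. RNA was amplified with NuGEN Ovation, per the labels' protocols, and all samples had an RNA integrity number above 9.1 but 1, at 7.8, which the labels do not tie to a group. Of 45141 probe sets, 104 controls were left out, and 28898 of the rest had 1 gene symbol, 551 several and 15588 no gene listed. Each of 17097 genes was represented by its brightest probe set (mean of the 9 gland arrays), with no filter on dim genes. An array's background limit, the highest of its nonspecific GC control probe sets, ran from 0.945 to 1.70, and 55.5% to 65.6% of genes exceeded it. The median over genes ran from 2.26 to 2.39. The number of arrays limits precision.

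A mean per group was fitted with limma 3.58.1 in R 4.3.3 (lmFit and eBayes, 6 residual degrees of freedom, two-sided tests), after a test on simulated data. Promoter sequences are RefSeq's (GRCm38.p6). The members, the gene lists and the alternative settings were chosen with earlier results of these data known. Named genes are the 6 members, up to 4 called genes of each list with the largest difference per comparison, fixed genes such as Il6, Jak1, Stat5a and Foxp3, and the 3 genes most like each called member, except Pim1, which is below background. Of 170 list and marker genes 148 were measured, and 22 are not analysed here. The alternatives were other probe set rules, dim genes left out, rescaling, variance models, array weights, other sets of arrays, and leaving out each array. Replicate numbers were not used as pairs.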

Additional observations from a re-analysis of the deposited data

How the results depend on the processing

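Each gland comparison was repeated under 20 settings, 9 of which left out 1 array, and no called difference changed direction in them. Values called in neither setting were compared by their side of the threshold alone. Between LG_eTreg and LG_eTconv 2 members were called in the analysis reported. This became 1 with the mean of the probe sets of a gene, with every probe set tested, with dim genes left out (which removes Pim1) and with arrays set to the same 75th percentile. It became 0 when only the 2 groups compared were fitted, with the replicate number as a block, and without LG_naive 1, LG_eTconv 1 and LG_eTreg 3 together, the arrays with the highest 18S signals (6.15 and 6.76) or the widest gap between 3′ and 5′ actin signals (3.35). Leaving out 1 array gave 0 to 1. Between LG_eTreg and LG_naive the 1 call became 0 without those 3 arrays (Il6ra -1.43, limma adjusted p = 0.0702) and stayed at 1 when any 1 array was left out. Between LG_eTconv and LG_naive 0 members were called under every setting.

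Il6ra was lower in LG_eTreg than in LG_eTconv under all 20 settings, from -1.52 to -0.65, but passed the threshold in 7 (adjusted p from 0.00437 to 0.186). It did not with the mean of its probe sets (-0.65, adjusted p = 0.102), every probe set tested (0.0503), 2 groups fitted (0.0947) or the block (0.0641). Pim1 passed in 7 of the 19 settings that held it. Over all genes the calls between LG_eTreg and LG_eTconv, 974 in the analysis reported, ranged from 672 to 1067. With the replicate block there were 906 between LG_eTreg and LG_eTconv, 1929 between LG_eTreg and LG_naive and 2271 between LG_eTconv and LG_naive. The labels do not say that the number marks the same mice. Deviations from group means of same-numbered arrays correlated between -0.097 and 0.283, and for LG_eTreg against LG_eTconv at 0.283, 0.079 and 0.171. With 3 arrays per group these correlations cannot decide whether the arrays are paired. A call lost with the block is counted as lost, and whether its effect is weaker cannot be told. The count of Stat3 targets called kept between 5 and 9 for LG_eTreg against LG_eTconv, 9 and 12 for LG_eTreg against LG_naive and 8 and 12 for LG_eTconv against LG_naive, settings added after seeing the data. The mean of a gene's probe sets gave smaller differences where the others are dim: Lif -0.73 between LG_eTreg and LG_eTconv, Socs2 1.62 and Ahr 2.30 between LG_eTreg and LG_naive, and the cause was not tested. Signals below background, as for Pim1 and Il6, and near it, as for Socs1, limit what can be seen of those genes.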
